A study of Homo sapiens with 7 samples.

Results

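The cytosolic ribosome is built from a fixed set of ribosomal proteins, and the genes for these proteins were followed here through ATAC-seq of human dopaminergic neurons. All protein-coding genes whose RefSeq symbol is RPL or RPS followed by a number, with an optional A, X, L or Y, were taken, together with RPLP0, RPLP1, RPLP2 and RPSA, on chromosomes 1 to 22 and X. This gave 81 genes of 19970 protein-coding genes. They comprise 31 genes for proteins of the small subunit, 43 for the large subunit, 3 for the stalk of the large subunit (RPLP0, RPLP1 and RPLP2) and 4 paralogs (RPL3L, RPL10L, RPL39L and RPS27L). The rule used symbols and no measured values.

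The cells were LUHMES, an established human mesencephalic line of wild-type genotype that was differentiated for 6 days in medium with tetracycline, dibutyryl-cAMP and GDNF. The treated group holds 4 libraries (treated 6, 7, 8 and 9) from cells given 25 µM antimycin A, an inhibitor of respiratory complex III, with 10 µM oligomycin, which blocks the ATP synthase of mitochondria, for 8 h. The vehicle group holds 3 libraries (vehicle 6, 7 and 8) from cells given DMSO. Libraries are numbered as in their labels, which do not say whether a number marks a shared batch. The design text speaks of independent batches, all from the same line, so the spread between libraries is not that between donors. The study's question was how chromatin accessibility responds when mitochondrial respiration and ATP synthesis are blocked together.

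Most ribosomal proteins are made in nearly every cell, and their synthesis takes a large share of a cell's energy. Most of their mRNAs begin with a C followed by a run of pyrimidines, the 5′ terminal oligopyrimidine (TOP) tract, which lets the mTOR kinase control their translation under nutrient and energy stress. Their genes are short, are transcribed from GC-rich promoters, and often carry small nucleolar RNAs (snoRNAs) in their introns. Free RPL5 and RPL11 bind MDM2 when ribosome assembly fails, which stabilises p53. ATAC-seq reads open chromatin at such promoters and does not measure mRNA or protein.

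Annotated starts from the RefSeq promoter table on GRCh38.p14 were available for 64 of the 81 genes, with 79 starts. The sequences below run from 40 bases before the start to 20 bases from it on, 5′ to 3′ on the strand of the gene, and are shown because they carry the letter pattern that sets these genes apart from other promoters. Capitals mark the pyrimidine run, defined as a C at -2 to +3 and the pyrimidines that follow it, at least 5 letters in all. RPL27A, whose product belongs to the large subunit, is followed by RPS13 and RPS6 (small subunit, and among the genes with the strongest regions below), RPL39 (a small protein of the exit tunnel, with the longest run shown), RPLP2 (stalk), RPS19 (the gene most often mutated in Diamond-Blackfan anaemia), and RPL11 and RPL7A (large subunit, among the genes with the weakest regions). The last pair, the paralogs RPS27L and RPL10L, holds no run at the annotated start.
RPL27A (chr11:8682752-8682811, + strand): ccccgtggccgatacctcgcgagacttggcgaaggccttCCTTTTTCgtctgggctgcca
RPS13 (chr11:17077648-17077707, - strand): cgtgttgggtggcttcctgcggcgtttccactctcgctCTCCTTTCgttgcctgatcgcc
RPS6 (chr9:19380217-19380276, - strand): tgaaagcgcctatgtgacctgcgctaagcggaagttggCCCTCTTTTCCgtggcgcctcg
RPL39 (chrX:119791611-119791670, - strand): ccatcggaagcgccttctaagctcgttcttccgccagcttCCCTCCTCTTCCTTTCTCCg
RPLP2 (chr11:809927-809986, + strand): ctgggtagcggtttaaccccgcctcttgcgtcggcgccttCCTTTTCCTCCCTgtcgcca
RPS19 (chr19:41860215-41860274, + strand): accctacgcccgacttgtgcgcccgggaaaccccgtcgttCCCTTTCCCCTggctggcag
RPL11 (chr1:23691766-23691825, + strand): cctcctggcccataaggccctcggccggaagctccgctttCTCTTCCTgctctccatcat
RPL7A (chr9:133348178-133348237, + strand): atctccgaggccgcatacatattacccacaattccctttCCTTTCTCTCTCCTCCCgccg
RPS27L (chr15:63157458-63157517, - strand): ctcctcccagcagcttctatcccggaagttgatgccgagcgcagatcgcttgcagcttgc
RPL10L (chr14:46651762-46651821, - strand): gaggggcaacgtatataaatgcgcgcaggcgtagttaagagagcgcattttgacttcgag

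Of the 64 genes, 50 (78.1%) held such a run at an annotated start, against 14.7% of the 15811 genes in the table and 8 of 69 (11.6%) genes for mitochondrial ribosomal proteins, which are made for another ribosome. The longest pyrimidine stretch touching -2 to +3 had a median of 10 letters over the starts of ribosomal protein genes and 3 letters over all starts. TATAAA at -40 to -15 on the strand of the gene was found in 3 genes (4.69%), RPLP0, RPS28 and RPL10L, against 4.19% of all genes. CCGGAAG or its reverse complement CTTCCGG, the core of the sites of ETS factors such as GABPA, stood in the window of 250 bases before to 50 after the start in 23 genes (35.9%), against 16.5% of all genes. ATGGCGG or its reverse complement CCGCCAT, the core of the YY1 site, stood in the same window in 14 genes (21.9%), against 9.15% of all genes. Both cores were searched on both strands, their matches cannot overlap each other, CTTCCGG may overlap the pyrimidine run, and both were found in larger shares of the mitochondrial ribosomal protein genes (43.5% and 34.8%). Of the patterns searched, the pyrimidine run was more frequent in the cytosolic than in the mitochondrial set by the widest margin. A letter match is a description of the window and not a bound site.

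The 81 genes lie on 21 chromosomes, with 12 (14.8%) on chromosome 19, against 7.27% of all protein-coding genes. Their median length from end to end was 5015 bp, against 24190 bp over all genes. Of the 81, 29 (35.8%) contain at least 1 annotated snoRNA and 60 snoRNAs in all, against 2.63% of all genes. For 30 genes (37.0%, against 28.6% of all genes) another protein-coding gene has an end within 1 kb, so that a region there cannot be assigned to 1 of them. RPL17, RPL36A and RPS10 share ends with readthrough genes that contain them.

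The peak lists were called in each library alone and differed widely in length. They held 188516, 248900, 55533 and 53063 regions in treated 6, 7, 8 and 9, and 53398, 32828 and 159902 regions in vehicle 6, 7 and 8. The background recovered from the fold values, a measure of relative depth, was 2.18, 5.99, 0.816 and 1.499 fragments in the treated libraries and 0.492, 0.611 and 1.43 fragments in the vehicle libraries. Vehicle 6 and vehicle 7 were thus the shallowest, and the treated group was deeper on the whole, so depth and treatment are partly confounded. Counts of genes were therefore taken from equal-size lists, the 32828 regions with the largest −log10 p of each library, and also from the lists as deposited. Of 10 dopaminergic marker genes, 4, 4, 4 and 4 had a gene-end region in the treated and 5, 4 and 4 in the vehicle equal-size lists, and 5 of 6 markers of all neurons had one in every library. Progenitor markers had a region in 3, 4, 3 and 4 of 4 cases in the treated and 1, 1 and 4 in the vehicle lists, glial markers in 2, 3, 2 and 3 of 5 and in 1, 2 and 2, mesenchymal and endothelial markers in 2, 2, 1 and 2 of 5 and in none, and blood markers in 1 of 3 in each treated list and in 0, 1 and 1. Their part in the results below was not tested.

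A region was counted at a gene end when it lay within 1 kb of either end of the gene. In the equal-size lists 74, 79, 75 and 78 of the 81 ribosomal protein genes had such a region in treated 6, 7, 8 and 9, and 63, 65 and 73 in vehicle 6, 7 and 8. Every treated library lay above every vehicle library, with means of 76.5 ± 2.38 (SD, n = 4) and 67 ± 5.29 (SD, n = 3), or 94.4% and 82.7% of the genes. Over all protein-coding genes the treated lists also lay higher, at 12292, 12976, 12080 and 12496 genes against 10773, 11061 and 11769. That is 62.4% and 56.1% of all genes, a difference of 6.31 percentage points beside 11.7 percentage points for the ribosomal protein genes. Genes for the mitochondrial ribosome showed a difference of like size. Of these 77 genes, 71, 75, 69 and 72 had a region in the treated and 61, 58 and 67 in the vehicle lists, a difference of 12.7 percentage points. These counts are of listed regions and do not measure the degree of opening, and depth differed between the groups as given above. In bulk chromatin, the share of cells with an open promoter and the opening per cell cannot be told apart.

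**Figure D1:**
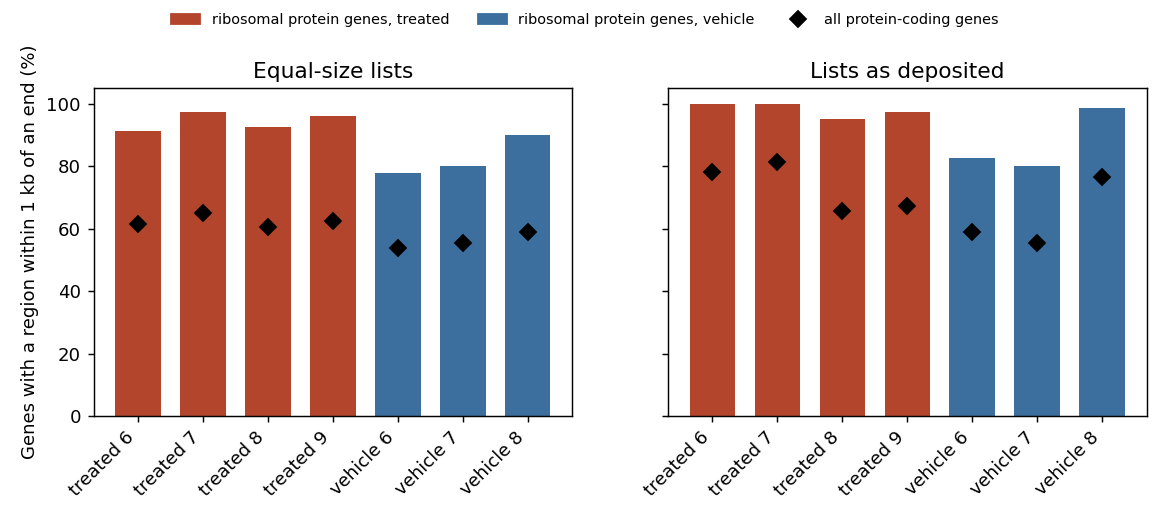
Share of genes with a region within 1 kb of an end (percent, vertical axis) in each of the 7 libraries, for equal-size lists on the left and lists as deposited on the right; bars are the 81 ribosomal protein genes and diamonds all protein-coding genes. The bars stand above the diamonds in every library, and vehicle 6 and vehicle 7 have the lowest bars in both panels, while vehicle 8 stands among the treated libraries in the deposited lists.

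The gap rested largely on vehicle 6 and vehicle 7. In the lists as deposited, 81, 81, 77 and 79 genes had a region in the treated libraries, and 67, 65 and 80 in the vehicle libraries. Vehicle 8 thus lay inside the treated range. In these deposited lists the groups differed by 10.9 percentage points, beside 9.53 percentage points over all genes. With vehicle 6 and vehicle 7 left out the treated mean was lower than vehicle 8 by 0.5 genes (a difference of -0.5), against a difference of 3.5 genes in the equal-size lists. Over all genes the treated mean was 14600.8 beside 15274 in vehicle 8 in the deposited lists, and 12461 beside 11769 in the equal-size lists. Among libraries of like background, treated 9 and vehicle 8 had 79 and 80 genes in the deposited lists and 78 and 73 in the equal-size lists. Treated 8, the shallowest treated library, had 77 and 75 genes, against 65 and 65 in vehicle 7. The part of depth in these counts was not tested.

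Gene by gene, 56 of the 81 genes had a gene-end region in all 7 equal-size lists (69.1%, beside 46.5% of all genes), and 1 gene, RPL10L, had none in any. The other 24 genes (29.6%, beside 19.3% of all genes) had a region in a larger share of treated than of vehicle lists, and none had one in a smaller share (beside 4.56% of all genes). Of these 24, 13 (16.0% of the 81, beside 8.65% of all genes) were in all treated and not all vehicle equal-size lists. For RPL12, RPL17, RPL35A and RPS21 that direction rests on the unequal group sizes, since each was missing from 1 treated and 1 vehicle list. In the lists as deposited 58 genes had a region in all 7 libraries (71.6%, beside 49.8% of all genes), 22 genes had the larger share among treated (beside 29.4% of all genes), and RPL12 alone had the smaller (beside 4.82%). Of those 22, 19 (23.5% of the 81, beside 11.9% of all genes) were in all treated and not all vehicle deposited lists, and each of these 19 was present in vehicle 8. No ribosomal protein gene had a region in all treated and no vehicle list, beside 0.576% of all genes in the equal-size and 0.11% in the deposited lists. None had one in all vehicle and no treated list, beside 0.015% in the equal-size and 0% in the deposited lists.

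The small subunit was the more completely covered. A region stood at 29, 31, 30 and 31 of its 31 genes in the treated and at 26, 29 and 29 in the vehicle equal-size lists. The genes missing somewhere were RPS2, RPS7, RPS10, RPS15, RPS16 and RPS21, named here because each was outside at least 1 equal-size list. RPS10, whose protein is ubiquitinated when ribosomes collide, was missing from treated 8, vehicle 6 and vehicle 7. RPS15, a protein close to the decoding site, was missing from treated 6, vehicle 7 and vehicle 8, and RPS7, which can bind MDM2, from vehicle 6 and vehicle 8. RPS2 and RPS16 were missing from vehicle 6 alone.

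For the large subunit a region stood at 39, 43, 40 and 42 of 43 genes in the treated and at 33, 33 and 39 in the vehicle equal-size lists. RPL11, RPL19 and RPL7A were in no vehicle equal-size list. RPL11, the MDM2-binding protein, was in those of treated 7 and treated 9. RPL19 and RPL7A were in those of treated 7, 8 and 9. All 3 were nevertheless in the deposited lists of every treated library and of vehicle 8, with weak regions. RPL11 had 25, 52, 5 and 12 summit fragments in treated 6, 7, 8 and 9, which is 11.5, 8.67, 6.13 and 8.01 times background, and 18 fragments, 12.6 times background, in vehicle 8. RPL4 and RPL23 were missing from vehicle 6 and vehicle 7 and present elsewhere. RPL4 lines the exit tunnel, and RPL23 can also bind MDM2. RPL4 had 46, 57, 11 and 19 summit fragments in the treated libraries and 30 in vehicle 8, or 21.1, 9.51, 13.5 and 12.7 times background against 20.9 times. Its summit lay 7018 to 7136 bp downstream of the annotated start wherever it was listed, beyond the far end of the gene (length 6841 bp). RPL4 also shares ends with SNAPC5 and ZWILCH, so these values are not those of the RPL4 start.

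The weakest region listed in vehicle 6 and in vehicle 7 stood 8.13 and 8.18 times above background, in vehicle 8 4.19 times, and in treated 6, 7, 8 and 9 3.67, 2.34, 6.13 and 4.67 times. RPL13, RPL29, RPL32, RPL37A and the stalk gene RPLP1 were each missing from vehicle 7 alone, RPL36 and RPL10A from the equal-size list of vehicle 6 alone, and RPL38, a protein with a known part in translating Hox mRNAs in the mouse, from treated 9, vehicle 6 and vehicle 7. RPL17, next to RPL4 in the tunnel, was missing from treated 8 and vehicle 6, RPL35A from treated 6 and vehicle 6, RPS21 likewise, and RPL12, at the base of the stalk, from treated 8 and vehicle 8.

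**Figure D2:**
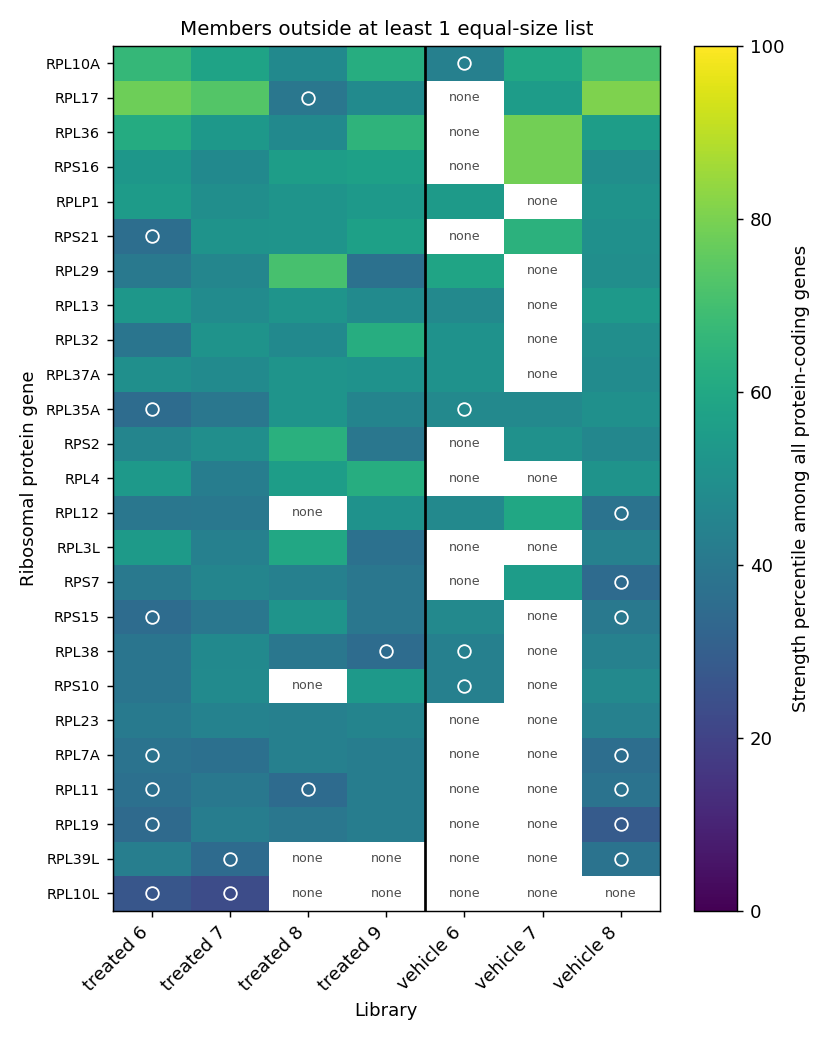
Strength percentile of the gene-end region among all protein-coding genes (colour, 0 to 100) in each library, lists as deposited, for the 25 genes outside at least 1 equal-size list; white cells marked none have no region, and circles mark regions outside the equal-size list. White cells gather in vehicle 6 and vehicle 7, and RPL10L at the bottom has a region in treated 6 and treated 7 only.

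Of the 4 paralogs, 3 were missing from lists that held their main copies. RPL10L, an intronless copy of RPL10 known from testis, had a region in the deposited lists of treated 6 and treated 7 only, the deepest libraries, with 13 and 20 summit fragments. RPL39L, a copy of RPL39 known from testis and tumours, was in the deposited lists of treated 6, treated 7 and vehicle 8. RPL3L, the copy of RPL3 used in heart and skeletal muscle, was in those of all treated libraries and of vehicle 8, but it shares an end within 1 kb with MSRB1. RPL10, RPL39 and RPL3 had a region in all 7 lists. RPS27L, which p53 induces, had a region in all 7 lists like RPS27.

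Region strength was compared as a percentile, the rank of a gene's highest fold at either end among all 19970 genes within its library, lists as deposited. The median ribosomal protein gene stood at 67.7, 65.9, 67.3 and 62.5 in treated 6, 7, 8 and 9 and at 61.9, 72.1 and 64.6 in vehicle 6, 7 and 8, while the median of all genes is near 50 by construction. The groups overlapped, with means of 65.8 ± 2.37 (SD, n = 4) and 66.2 ± 5.29 (SD, n = 3). Set against genes with a region only, they stood closer to the middle. Among genes with a region, the ribosomal protein median stood at 67.7, 65.9, 67.3 and 62.5 beside 61.0, 59.2, 67.3 and 65.1 for all such genes in the treated libraries, and at 70.9, 75.6 and 65.0 beside 70.9, 72.1 and 61.7 in the vehicle libraries. Small-subunit genes had medians of 72.5, 73.5, 70.8 and 74.2 in treated and 68.1, 75.6 and 74.98 in vehicle libraries. Large-subunit genes had medians of 64.4, 61.0, 63.6 and 59.7 in treated and 61.9, 64.1 and 60.8 in vehicle libraries. Thus the small-subunit median lay above the large-subunit median in all 7 libraries.

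The strongest genes stood high in both groups. RPS13 was highest on average, at 95.3, 96.8, 96.4 and 95.1 in the treated and 98.7, 97.9 and 97.1 in the vehicle libraries. RPL37 followed with a range of 94.4 to 97.9 over the 7 libraries, then RPL15 (91.8 to 98.3), RPS6 (87.9 to 95.8) and RPL23A (84.9 to 91.7). RPS6 is the target of the S6 kinases downstream of mTOR, and RPL23A lies at the exit of the tunnel where the signal recognition particle binds. RPL27A was seventh, at 90.3, 87.8, 84.4 and 83.3 in the treated and 85.0, 81.3 and 92.5 in the vehicle libraries, and the groups overlapped. In treated 6, treated 7, vehicle 7 and vehicle 8 its stronger region lay about 6.2 kb downstream of the annotated start (6219, 6158, 6215 and 6158 bp), at the far end of the gene, and in the other 3 libraries upstream of the start.

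Genes with known roles beyond the ribosome spread over the whole range. RPL5 stood at 84.6, 88.6, 92.4 and 83.3 in treated and 86.4, 86.0 and 82.1 in vehicle libraries, but it shares an end with DIPK1A. RPL11, its partner in the 5S particle, stood between 34.9 and 42.3 in the treated libraries and at 38.2 in vehicle 8, with no region in vehicle 6 and vehicle 7. These partners thus lay far apart in every library. RPSA, also known as the laminin receptor, stood at 82.2, 84.0, 92.4 and 65.1 against 78.1, 81.3 and 81.0. RPS3, which also acts in DNA repair, stood at 81.3, 62.9, 70.8 and 76.2 against 78.1, 75.6 and 82.7. Its summit lay 21683 to 21913 bp downstream of the annotated start in all 7 libraries, at the end shared with KLHL35, so this strength is not that of the RPS3 start. RPL13A, part of the GAIT complex that silences inflammatory mRNAs, stood at 64.4, 62.9, 67.3 and 59.7 against 65.2, 55.2 and 59.9.

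The stalk proteins recruit the translation factors that hydrolyse GTP. RPLP0 stood at 81.3, 82.6, 59.8 and 74.2 in treated and 78.1, 72.1 and 78.8 in vehicle libraries. RPLP1 stood at 55.1, 49.3, 51.7 and 53.8 in treated libraries and at 54.6 and 51.5 in vehicle 6 and vehicle 8. RPLP2 stood at 58.9, 65.0, 67.3 and 67.6 against 54.6, 59.8 and 54.8. Apart from RPLP2, whose treated values were mostly the higher, the stalk genes showed no order between the groups. The lowest 5 of the 81 genes were RPL7A, RPL11, RPL19, RPL39L and RPL10L, all of them outside every vehicle equal-size list.

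A fit over all genes asked whether single genes changed rank between treated and vehicle libraries. The ranks were turned into normal scores over the 9943 genes with a gene-end region in all 7 deposited lists, where 0 is the middle gene and 1 is about 1 SD up, and tested with limma. Of the 81 ribosomal protein genes 58 passed that filter, so the 23 that were missing somewhere have no value. None of the 58 was called for strength at an adjusted p under 0.05 (limma, Benjamini-Hochberg), beside 4 of 9943 genes (0.0402%). At an unadjusted p under 0.05 the limma fit held 3 of the 58, RPS27L, RPL3 and RPS4X, beside 8.03% of all genes. The median difference of treated minus vehicle was -0.02 over the 58 genes and 0.01 over all genes. In a simulation of this comparison with the spread of the data over 9943 genes, the fit recovered 86 of 100 shifts of 2 score units and 29 of 100 shifts of 1 unit, so a modest shift would often be missed.

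RPS27L had the largest positive difference. Its scores were -0.34, -0.39, -0.53 and -0.90 in treated 6, 7, 8 and 9 and -1.05, -2.65 and -1.08 in vehicle 6, 7 and 8. All treated libraries lay above all vehicle libraries, with a difference of 1.06 (SE 0.375), and the limma adjusted p was 0.501. Without vehicle 7 the difference was 0.49, below those of RPL7 (0.57) and RPLP2 (0.50) in the same setting. RPLP2 was the only other of the 58 genes with that separation, at -0.786, -0.48, -0.35 and -0.35 against -1.05, -0.788 and -1.02 (difference 0.46, SE 0.317). Its treated 6 and vehicle 7 scores nearly tied, and its percentiles over all genes, given above, overlapped between the groups. RPLP2 also shares an end within 1 kb with PIDD1, so its region cannot be assigned to RPLP2 alone. RPS27L and RPLP2, 2 genes of 58, compare with 3.95% of all genes. RPL28 (0.50), RPL7 (0.42) and RPS19 (0.30) also had positive differences, with overlapping groups. Without vehicle 7 those of RPL28 and RPS19 were 0.24 and 0.14, and without vehicle 6 that of RPS19 was 0.51.

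RPL3, which lies close to the peptidyl transferase centre, had the largest negative difference. Its scores were -1.08, -1.11, -0.93 and -1.86 in treated and -0.19, 0.03 and -1.02 in vehicle libraries, so the groups overlapped through vehicle 8. The difference was -0.85 (SE 0.352), with a limma adjusted p of 0.556. RPS4X, an X-linked gene of the small subunit, stood at 0.16, 0.43, -0.19 and 0.35 against 1.34, 0.46 and 0.66. Its treated libraries all lay below the vehicle libraries, with a difference of -0.63 (SE 0.258) and a limma adjusted p of 0.556. Without vehicle 6, its highest library, the difference was -0.36. RPS13 (difference -0.35) separated in the same direction, as did RPL14 (-0.37) and RPL24 (-0.31), which were chosen after their values were seen. These 4 genes of 58 compare with 4.59% of all genes. RPS27 (-0.57), RPL22 (-0.53) and RPL10 (-0.50), a late-joining protein of the large subunit, had overlapping groups. The difference was -0.24 for RPL22 without treated 9 and -0.24 for RPL10 without vehicle 6, and that of RPS27 ranged from -0.34 to -0.95 with 1 vehicle library left out. The paralog RPS27L and its main copy RPS27 thus had differences of opposite sign, and the difference between them was not tested. RPS27 shares ends within 1 kb with NUP210L and RAB13, so its region cannot be assigned to RPS27 alone.

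**Figure D3:**
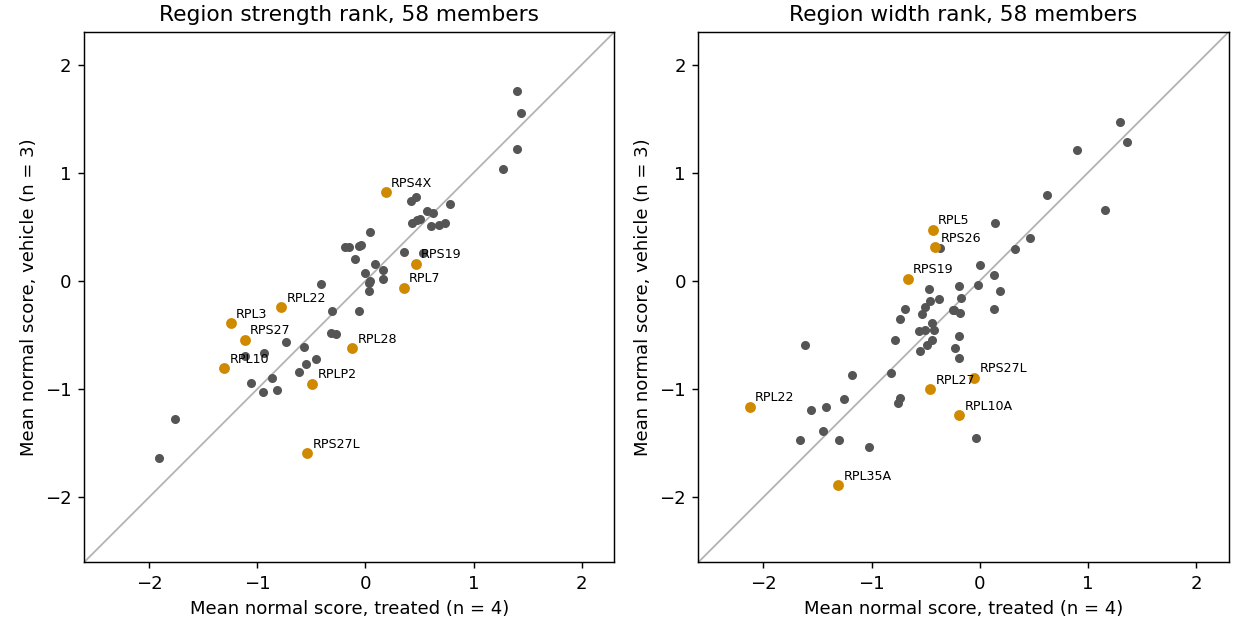
Mean normal score in the treated libraries (horizontal, n = 4) against that in the vehicle libraries (vertical, n = 3) for the 58 genes with a region in all 7 lists, for region strength on the left and region width on the right; the line marks equal scores and the named points are genes with large differences whose values the text gives. Most points lie near the line, RPS27L stands furthest below it for strength (difference 1.06), RPL10A lies well below it for width (difference 1.05), and no gene was called in either fit.

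Regions at ribosomal protein genes were narrow. Over the 58 genes with a region in all 7 lists the median width was 1202.5, 1692.5, 803 and 1108.5 bp in treated 6, 7, 8 and 9 and 672.5, 592.5 and 1225.5 bp in vehicle 6, 7 and 8. Over all 9943 such genes it was 1512, 2031, 933 and 1296 bp in treated and 891, 661 and 1454 bp in vehicle libraries. Both medians were largest in treated 7 and smallest in vehicle 7, the longest and the shortest list. Ranked within a library over those 9943 genes, the median ribosomal protein gene stood at the 28.4, 31.4, 38.4 and 36.4 percentile of width in treated and at 32.9, 43.1 and 32.8 in vehicle libraries. The ribosomal protein genes were thus narrower than the middle gene in every library, and the groups overlapped.

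In the width fit none of the 58 genes was called at an adjusted p under 0.05 (limma, Benjamini-Hochberg), beside 0 of 9943 genes (0%). At an unadjusted p under 0.05 the limma fit held 4, RPL5 and RPL22 among them, beside 6.29% of all genes. RPL10A, a protein of the large subunit, had regions of 1265, 1983, 1006 and 1074 bp in the treated libraries and of 197, 527 and 1061 bp in the vehicle libraries, with a score difference of 1.05 (SE 0.494). Vehicle 8 overlapped the treated range, and vehicle 6 and vehicle 7 carried the narrow regions. Without vehicle 6 the score difference was 0.36. RPL35A alone had all treated scores above all vehicle scores (difference 0.58), beside 2.37% of all genes. Its treated 9 and vehicle 8 scores nearly tied, at -1.418 and -1.423. In bp its vehicle 8 region (820) was wider than those of treated 8 and treated 9 (438 and 636). RPS27L (0.85) and RPL27 (0.54) had overlapping groups. With 1 library left out their differences ranged from 0.31 (without vehicle 7) to 1.298 (without vehicle 8) and from 0.075 (without vehicle 6) to 0.92 (without vehicle 7).

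Among the genes with lower width scores in treated libraries, RPL5 had regions of 1201, 1496, 871 and 1180 bp in the treated and of 1212, 1092 and 1421 bp in the vehicle libraries. Ranked within their libraries the treated regions were all narrower than the vehicle regions, with a score difference of -0.91 (SE 0.349) and a limma adjusted p of 0.761. RPS26, at the mRNA exit, and RPS19 also had all treated scores below all vehicle scores, with differences of -0.72 and -0.69, that of RPS19 being -0.41 without treated 9. These 3 of 58 genes compare with 3.67% of all genes. RPL22 (-0.96) had overlapping groups. Width had less power, since the simulation of this fit over 9943 genes recovered 39 of 100 shifts of 2 score units and 2 of 100 shifts of 1 unit.

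Around the annotated starts the regions were compact. The start was inside a region at 76, 77, 63 and 70 of the 79 starts in treated 6, 7, 8 and 9 and at 52, 48 and 76 in vehicle 6, 7 and 8. The shares were 96.2%, 97.5%, 79.7% and 88.6% against 65.8%, 60.8% and 96.2%, beside 67.7%, 72.0%, 52.0% and 57.8% against 47.6%, 41.7% and 65.9% of all annotated starts. From the start, the regions reached a median of 551, 736, 300 and 503.5 bp downstream in treated and 299.5, 240.5 and 522 bp in vehicle libraries. Over all starts the downstream reach was 706, 951, 430 and 634 bp in treated and 431, 320 and 675 bp in vehicle libraries, longer in each library. The upstream reach differed less, with 568, 806, 363 and 508 bp against 382.5, 350 and 475.5 bp at ribosomal protein starts, and 575, 795, 403 and 539 bp against 409.5, 343.5 and 559 bp at all starts. The shorter regions of these genes were thus short mainly on the transcribed side.

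**Figure D4:**
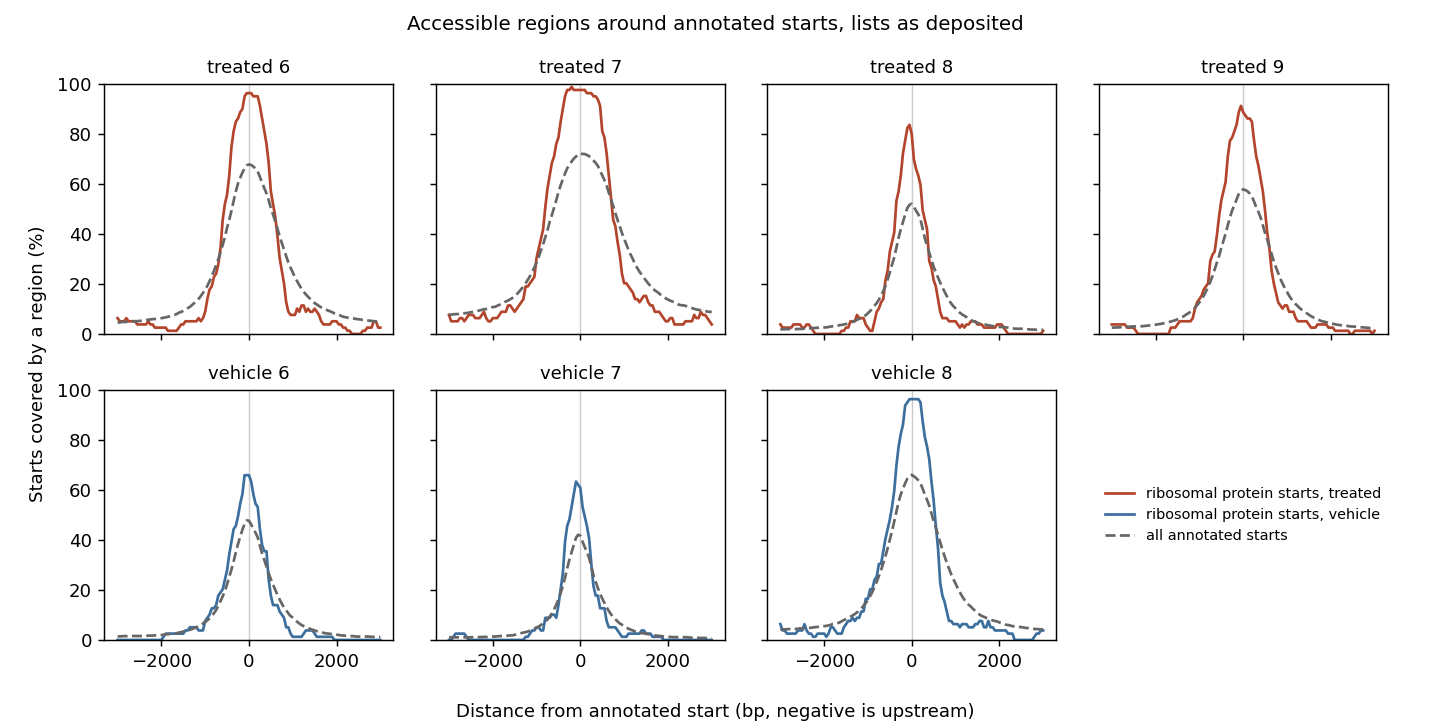
Share of annotated starts covered by a region (percent, vertical axis) by distance from the start (bp, negative is upstream), lists as deposited, in each of the 7 libraries; solid lines are the 79 ribosomal protein starts and dashed lines the 22131 starts in the table. The solid lines peak higher and fall off faster downstream than the dashed lines in every library, and vehicle 6 and vehicle 7 have the lowest peaks.

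Where the region's summit lay within 1 kb of a start, its median offset was -71.5, -73, -92.5 and -57 bp in the treated libraries, negative being upstream, and -68.5, -102 and -98 bp in the vehicle libraries. Over all genes it was -49, -24, -50 and -22 bp in treated and -56, -56 and -51 bp in vehicle libraries. The ribosomal protein summits were the further upstream in each library, and the treated and vehicle values overlapped. Strength was much alike with and without the pyrimidine run. Strength is the highest fold at either gene end, whereas the letter patterns were searched at annotated starts. For RPS3, RPL4 and RPL6, among others, the strongest region is not at an annotated start, so the comparison is not one of starts alone. The median of the genes' mean strength percentile was 61.6 in the 50 genes with a run and 61.1 in the 14 without. It was 60.6 and 64.1 with and without CCGGAAG, and 65.5 and 59.6 with and without ATGGCGG. RPL7A and RPL11, with runs of 17 and 8 letters, were among the weakest genes, and RPS13 and RPS6, with runs of 8 and 11 letters, among the strongest.

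Away from gene ends, 44 regions of the union of the equal-size lists had a ribosomal protein gene as the nearest gene within 100 kb, and they belonged to 26 of the 81 genes. Of these, 27, 23, 20 and 17 were present in treated 6, 7, 8 and 9 and 13, 15 and 25 in vehicle 6, 7 and 8. Of all 34398 distal regions, 15501, 15487, 14086 and 14517 were present in the treated and 13728, 13778 and 15511 in the vehicle lists. A single one of the 44 (2.27%) was present in all treated and no vehicle equal-size list, beside 0.826% of 34398 distal regions, and none the other way round, beside 0.419%. With 4 against 3 libraries the smallest p of Fisher's exact test is 0.0286, two-sided, and its adjusted p was 1, so no distal region could pass.

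That region lies at chr11:8657123-8659229 (hg38), is 2107 bp wide, and sits inside TRIM66, a gene for a chromatin protein of the TRIM family that overlaps the start of RPL27A. It is 23563 bp from the nearest end of RPL27A, which spans chr11:8682792-8689872. Its summit held 99, 158, 18 and 32 fragments in treated 6, 7, 8 and 9, which is 45.4, 26.4, 22.1 and 21.4 times background. In the vehicle libraries it was listed in vehicle 8 alone, only in the deposited list, with 14 fragments or 9.77 times background. All treated values thus lay above the vehicle 8 value, and vehicle 6 and vehicle 7, whose weakest listed regions stood at 8.13 and 8.18 times background, had no entry. The region was picked for its presence in every treated and no vehicle equal-size list, so this order partly restates that choice. In the treated libraries this distal region came close to the stronger gene-end region of RPL27A. That gene-end value stood at 55.5, 29.7, 24.5 and 19.4 times background, against 40.7, 24.5 and 68.4 times in the vehicle libraries. It does not belong to 1 region, since the summit lay at the far end of RPL27A in treated 6, treated 7, vehicle 7 and vehicle 8. In treated 8, treated 9 and vehicle 6 it lay upstream of the start. The other distal regions near RPL27A did not follow the same pattern. The one at chr11:8661601-8662463 was in 3 treated and 2 vehicle equal-size lists, and the one at chr11:8671225-8671988 in 1 treated and 0 vehicle lists.

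**Figure D5:**
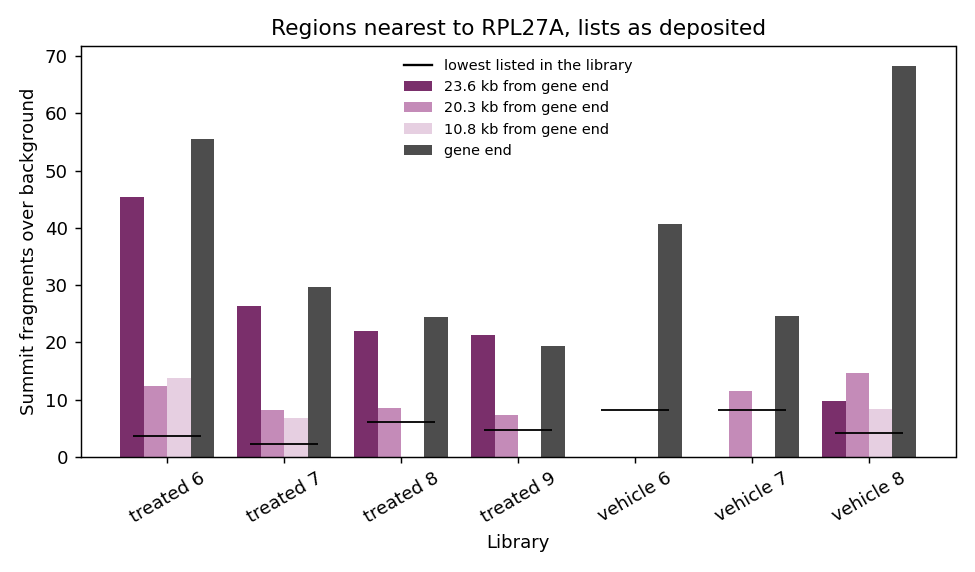
Fragments at the summit divided by the library's background (vertical axis) for the 3 distal regions nearest to RPL27A and for its gene-end region, in each of the 7 libraries, lists as deposited; black lines mark the weakest region each library lists, and a missing bar means no region. The region 23.6 kb away, picked for its presence in every treated and no vehicle equal-size list, stands at 21.4 to 45.4 in the treated libraries and at 9.77 in vehicle 8. The gene-end bars overlap between the groups. They come from the far end of RPL27A in treated 6, treated 7, vehicle 7 and vehicle 8 and from upstream of its start elsewhere.

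Other distal regions showed weaker contrasts. A region near RPL31 (chr2:101046234-101047673, inside TBC1D8) was in 4 treated and 1 vehicle lists, and those near RPL32 and RPS14 were in 4 treated and 2 vehicle lists each. A region at chr12:112409003-112409760, also in 4 treated and 1 vehicle lists, lies inside RPL6. It holds 1 of the 2 annotated starts of RPL6, at position 112409285, and the other is at 112411442. For RPL6 the gene-end region is therefore not the one at this start, since the annotated upstream end of the gene lies beside PTPN11. In the deposited lists the region at that start had 34, 64, 8 and 14 summit fragments in the treated libraries and 36 in vehicle 8, with none in vehicle 6 and vehicle 7. Near RPL10L, a region at chr14:46717316-46717998 was in 0 treated and 2 vehicle equal-size lists. The deposited lists held it with 21, 40 and 8 summit fragments in treated 6, 7 and 9 and with 8 and 24 in vehicle 6 and vehicle 8, and without an entry in treated 8 and vehicle 7.

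Lists of other genes of the translation machinery give the setting. Of 38 translation factor genes, 35, 35, 34 and 36 had a gene-end region in the treated and 33, 34 and 34 in the vehicle equal-size lists. Of 40 ribosome biogenesis genes, 38, 39, 39 and 39 had one in treated and 37, 39 and 38 in vehicle lists. Of 13 other TOP mRNA and mTOR pathway genes, 12, 12, 12 and 12 had one in treated and 9, 10 and 11 in vehicle lists, or 92.3% and 76.9%, beside 62.4% and 56.1% of all genes. Of these lists 31, 37 and 9 genes, in the order given here, entered the limma fits, and none was called at an adjusted p under 0.05. At an unadjusted p under 0.05 they held 2, 1 and 0 genes for strength, beside 8.03% of all genes, and 2, 4 and 1 genes for width, beside 6.29%.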

How the data were processed

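ATAC-seq libraries were made from nuclei treated with Tn5 transposase, per the labels' protocols. Per the submitters' processing notes, FastQC, Bowtie2 and Picard were used on hg38. MACS2 called peaks for each library alone, per the file headers, with Tn5 read shifting and the caller's settings, which set region width and number, not given in the sources used here. The deposited lists give, as the authors' values, a fold enrichment at the summit as a ratio, −log10 p and −log10 q, and the summit position. Fold, −log10 p and width were used to rank regions within a list. All folds (100%, tolerance 0.02) fitted whole fragments over 1 constant background per library, which gave the relative depth. Read totals were not used here, and differences in background limit what a missing region can show.

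Peaks on other chromosomes (29 to 54 per library) were left out. Gene ends came from RefSeq on GRCh38.p14, and all 81 genes matched. The text names RPL27A, the stalk genes and RPSA, 5 genes with roles beyond the ribosome, the paralogs and RPS4X with their main copies, genes outside an equal-size list, the 5 highest and 5 lowest in strength, any gene called, the 5 largest differences per direction in each fit, and genes nearest to a distal region of 1 treatment. A few genes under this rule are left unreported. These genes and the lists were chosen with earlier results of these data known. Normal scores were fitted with limma 3.58.1 (trend) in R 4.3.3, adjusted by Benjamini-Hochberg over 9943 genes, and tested on simulated data. Python 3.11.15, numpy 2.4.6, pandas 2.3.3, scipy 1.17.1 and matplotlib 3.10.9 did the rest. Alternatives covered list choice, gene filter, scale, window, gene start, covariate, short lists, replicate block and left-out libraries.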

Additional observations from a re-analysis of the deposited data

Results flagged for a closer look

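The strength percentile of RPL3 in treated 9 was 42.3, while the other treated libraries lay between 53.7 and 55.8, so that 1 sample stood far from the rest of its group. It was the only flag among 49 groups of values tested in the treated libraries, and chance flags about 1 in 20 such groups. The vehicle values of RPL3 were 70.9, 75.6 and 54.8.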

How the results depend on the processing

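In both fits 0 of the ribosomal protein genes were called under the limma main setting and all 16 alternatives, with 2 to 5 at an unadjusted p under 0.05 for strength and 1 to 8 for width, and lowest adjusted p of 0.306 and 0.0949. The 20 largest differences, 5 per direction in each fit, kept their sign in all 159 values for strength and all 155 for width. Those genes were the extremes of the main setting, and the alternatives reuse the same libraries, so a kept sign says little. Over all genes the strength fit called 4, against 1 with genes seen in any library, 7 on a log2 scale, 1 and 2 with windows of 500 and 2500 bp, 2 with the gene start only, 7 in the 4 short-list libraries, and 0 to 7 with 1 library left out (0 without treated 8 or vehicle 7, 1 without treated 9, 2 without vehicle 6, 7 without vehicle 8). The width fit called 0, against 1 with genes seen in any library, 1 with a window of 2500 bp, and 0 to 61 with 1 library left out (14 without treated 8, 61 without vehicle 8); the cause was not tested. Same-numbered libraries did not deviate together (correlations -0.10, -0.00 and -0.04 for strength, -0.10, -0.14 and -0.37 for width), and the replicate block called 9 genes for strength and 0 for width, none of them a ribosomal protein gene. For genes with a region at an end the difference of 9.5 ranged from 7.5 to 12.5 with 1 library left out and was 9.0 with the replicate block. In the lists as deposited, with all libraries, it was 8.83. With vehicle 6 and vehicle 7 left out it was 3.5 in the equal-size lists and -0.5 in the lists as deposited. Both settings without vehicle 6 and vehicle 7 were chosen after seeing the data, and with 1 vehicle library left they have no test. The 1 treated-only distal region became 0 in the lists as deposited, where vehicle 8 holds it, and 3 without vehicle 8 (1 to 3 with 1 library left out). The 4 against 3 libraries and the shallow vehicle 6 and vehicle 7 limit all counts.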
